A study of Mus musculus with 18 samples.

Results

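Messenger RNA from 18 mouse livers was examined for 98 genes that encode subunits of oxidative phosphorylation, out of 32285 genes in the count table. Members were chosen by gene symbol alone: every gene of the mitochondrial genome in the table, and every nuclear gene named as a structural subunit of complex I (Nduf genes other than assembly factors), complex II (Sdha to Sdhd), complex III (Uqcr genes), complex IV (Cox4 to Cox8 genes) or complex V (Atp5 genes). One name ending in -ps, Ndufb1-ps, was left out. The set held 13 mitochondrially encoded and 85 nuclear encoded genes, and 90 of the 98 (11 and 79) passed the filter on low counts and were tested.

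The 3 groups held 6 livers each. Space pups were 10-week-old first-generation offspring of germline stem (GS) cells, cultured spermatogonial stem cells of a DBA/2-background EGFP transgenic line, after 6 months of frozen storage aboard the International Space Station. Ground pups were of the same age, and their GS cells spent an equal time frozen on the ground. In both, the thawed cells were transplanted into the testes of infertile W mice, which lack spermatogenesis of their own, and the recipients were mated with C57BL/6 females. BDF1 mice were wild-type controls born by natural mating, whose age is not given. All 18 animals are labelled with the strain B6D2F1, and only the pups passed through GS cell culture, freezing and transplantation. Age, if it differed, and the passage through GS cells therefore cannot be told apart when either kind of pup is compared with BDF1 mice.

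Oxidative phosphorylation takes place in the inner mitochondrial membrane. Complexes I and II pass electrons from NADH and succinate to ubiquinone, complex III passes them on to cytochrome c, and complex IV reduces oxygen. Complexes I, III and IV pump protons, and complex V uses the proton gradient to make ATP. The core membrane subunits of complexes I, III, IV and V are encoded by the small circular mitochondrial genome and transcribed as long precursors inside the organelle, while the other subunits, and all of complex II, are encoded in the nucleus and imported as proteins. Hepatocytes, the main cell of the liver, are rich in mitochondria.

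Many mitochondrial genes also have copies in the nuclear genome, and these copies bear on the counts. The transcript of each member was aligned to every other transcript of GENCODE M21 (build mm10/GRCm38), and the first stretch of 60 aligned bases is shown for a gene whose copy is identical and for one whose copy differs. The mt-Co2 gene (ENSMUSG00000064354, chrM:7013-7696) encodes the complex IV subunit that takes electrons from cytochrome c. It matched the pseudogene Gm28661 (chr1:24614885-24615565) over 681 bases with 0 mismatches. The mt-Cytb gene (ENSMUSG00000064370, chrM:14145-15288) encodes cytochrome b, the core of complex III. It matched the pseudogene Gm11410 (chr4:80003989-80005131) over 1142 bases at 92.91% identity, with 81 mismatches. Bases that differ are in capitals, and each stretch reads 5′ to 3′ along the transcript.
mt-Co2: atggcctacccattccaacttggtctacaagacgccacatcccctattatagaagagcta
Gm28661: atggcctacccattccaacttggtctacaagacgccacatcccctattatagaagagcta
mt-Cytb: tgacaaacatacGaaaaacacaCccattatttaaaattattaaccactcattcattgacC
Gm11410: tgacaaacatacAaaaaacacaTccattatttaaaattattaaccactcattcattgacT
Within these stretches mt-Co2 and its copy had 0 mismatches, and mt-Cytb and its copy had 3.

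Total counts per library ranged from 15407450 to 20562351. Levels are given in CPM, counts scaled to 1e+06 of the TMM-scaled library size (TMM is the trimmed mean of M-values). A count of 0 in a library allows a level of up to 0.134 to 0.235 CPM, taking 3 counts as the limit, and this covers counting error only. Hepatocyte transcripts were abundant in all 18 libraries: Alb lay between 38328 and 341290 CPM. The 5 striated muscle markers summed to at most 0.15 CPM, with Myh4 at 0 in 18 of 18 libraries. Of the adipocyte markers, Ucp1, Cidea, Adipoq and Plin1 were each at 0 in at least 10 of 18 libraries, and Fabp4 was between 3.79 and 7.90 CPM. Space replicate 6 stood apart with 46.0 CPM over 5 haploid germ cell markers (Prm1, Prm2, Tnp1, Tnp2, Ldhc), against at most 4.75 CPM elsewhere. In each group, replicates 1 to 3 had little Xist RNA and replicates 4 to 6 had much (Xist-low and Xist-high libraries). Sex is not among the labels and both sexes were used, so this class is treated as a nuisance term. The 10 most abundant nuclear genes took between 12.8% and 16.7% of counts in BDF1 mice, 15.8% to 16.2% in Xist-low and 27.0% to 29.1% in Xist-high Space pups, and 15.0% to 15.9% in Xist-low and 27.5% to 36.4% in Xist-high Ground pups.

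Per kilobase of transcript, mt-Co1, which encodes the oxygen-reducing catalytic subunit of complex IV, had the highest level of all 98 genes, 12829 CPM per kb as the mean of 18 libraries. It was followed by the complex I subunit genes mt-Nd1 (6343), mt-Nd2 (5269), mt-Nd4 (2744) and mt-Nd5 (2166), with mt-Cytb (5774) between mt-Nd1 and mt-Nd2. The ranges over libraries of neighbours in this order overlapped. The highest nuclear member per kb was Atp5b, the catalytic beta subunit of ATP synthase, at 516 CPM per kb. These 6 abundant mitochondrial genes each had at least 44308 counts in every library.

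The other 7 mitochondrial genes were counted far less. The complex I gene mt-Nd6, the only protein-coding gene on the opposite strand (chrM:13552-14070, minus), had 102 CPM per kb. The complex IV genes mt-Co2 and mt-Co3 had 33.4 and 5.89. The complex V gene mt-Atp6, the proton channel subunit, had 5.52, and the complex I genes mt-Nd4l and mt-Nd3 had 1.98 and 1.58. The lowest was mt-Atp8, a small membrane subunit of complex V, with 0.991 CPM per kb and at most 9 counts in a library. All 5 genes mt-Co2, mt-Co3, mt-Atp6, mt-Nd4l and mt-Nd3 have a pseudogene on chromosome 1 that matches 99% or more of the transcript, at 99.71% identity for mt-Nd3 and with 0 mismatches for the other 4. None of the other 8 mitochondrial genes has an annotated copy of that identity and length. For mt-Nd4 the identical stretch covers 63.6% of the transcript, mt-Co1 has a full-length copy at 97.61% identity, and mt-Nd1 has none at 90% or more. For mt-Atp8 no annotated copy was found, but the copies of its neighbours mt-Atp6 (Gm10925, ending at chr1:24614651) and mt-Co2 (Gm28661, starting at chr1:24614885) leave a gap between them where its sequence would lie. None of these pseudogenes is in the count table. How reads that match both places were counted is not stated, so its part in these low counts was not tested, and the summed mitochondrial counts below rest on the 6 abundant genes.

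**Figure D1:**
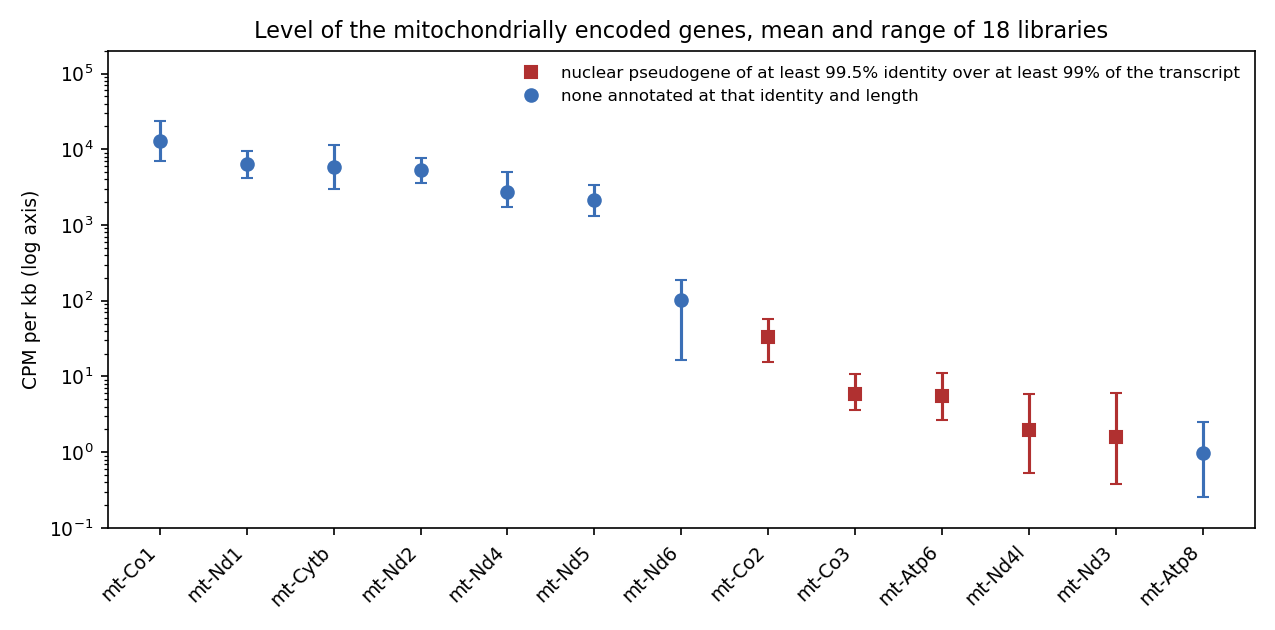
Level of each mitochondrially encoded gene in CPM per kb of transcript on a log axis. Points are means of 18 libraries and bars run from the lowest to the highest library; red squares are genes with a nearly identical full-length nuclear pseudogene, which sit between 1.58 and 33.4 CPM per kb, and blue circles are the other genes.

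As a share of all counts, the 13 mitochondrial genes took from 4.16% to 6.02% in Space (median 4.83%), from 3.09% to 5.16% in Ground (median 3.58%) and from 4.38% to 5.68% in BDF1 (median 4.80%). The means were 4.98 ± 0.6254% in Space pups, 3.74 ± 0.756% in Ground pups and 4.88 ± 0.463% in BDF1 mice (SD, n = 6 each). Of the Ground libraries, 5 lay below every Space and BDF1 library, and only Ground replicate 2, at 5.16%, lay among them. No test was made on these sums. After the 10 most abundant nuclear genes were taken out of the total, the Ground range became 3.63% to 6.13%. It was 5.65% to 8.48% in Space pups and 5.17% to 6.82% in BDF1 mice. Of the 5 low Ground libraries, replicates 4 and 6 (5.30% and 5.87%) then lay above the lowest BDF1 library. Only replicates 1, 3 and 5 stayed below every Space and BDF1 library.

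The 85 nuclear genes together took fewer counts than the 13 mitochondrial ones in every library. Their share ranged from 0.923% to 1.42% in Space (median 1.27%), from 0.774% to 1.51% in Ground (median 1.14%) and from 1.17% to 1.38% in BDF1 (median 1.28%). In both kinds of pup the Xist-high libraries were below the Xist-low ones: 0.923% to 1.16% against 1.38% to 1.42% in Space pups, and 0.774% to 1.03% against 1.26% to 1.51% in Ground pups. In BDF1 mice the classes overlapped. The Xist-high pups are also the libraries in which Alb took 17.6% to 24.1% of counts, and the part of this in the lower share was not tested.

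The ratio of mitochondrial to nuclear counts does not depend on library scaling. It ranged from 3.34 to 6.52 in Space pups (median 3.77), from 2.30 to 4.83 in Ground pups (median 3.58) and from 3.23 to 4.17 in BDF1 mice (median 3.86). The groups overlapped, and both kinds of pup spread more widely than the controls, with an SD of log2 ratio of 0.37 in Space, 0.43 in Ground and 0.13 in BDF1 (n = 6 each). Within the pups the ratio followed the Xist class: every Xist-high pup of a group was above every Xist-low pup of the same group. The order of the groups differed between the classes. In Xist-low libraries the mean log2 ratio was 1.78 in Space, 1.44 in Ground and 1.99 in BDF1, and in Xist-high libraries it was 2.29, 2.11 and 1.87 (n = 3 each).

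**Figure D2:**
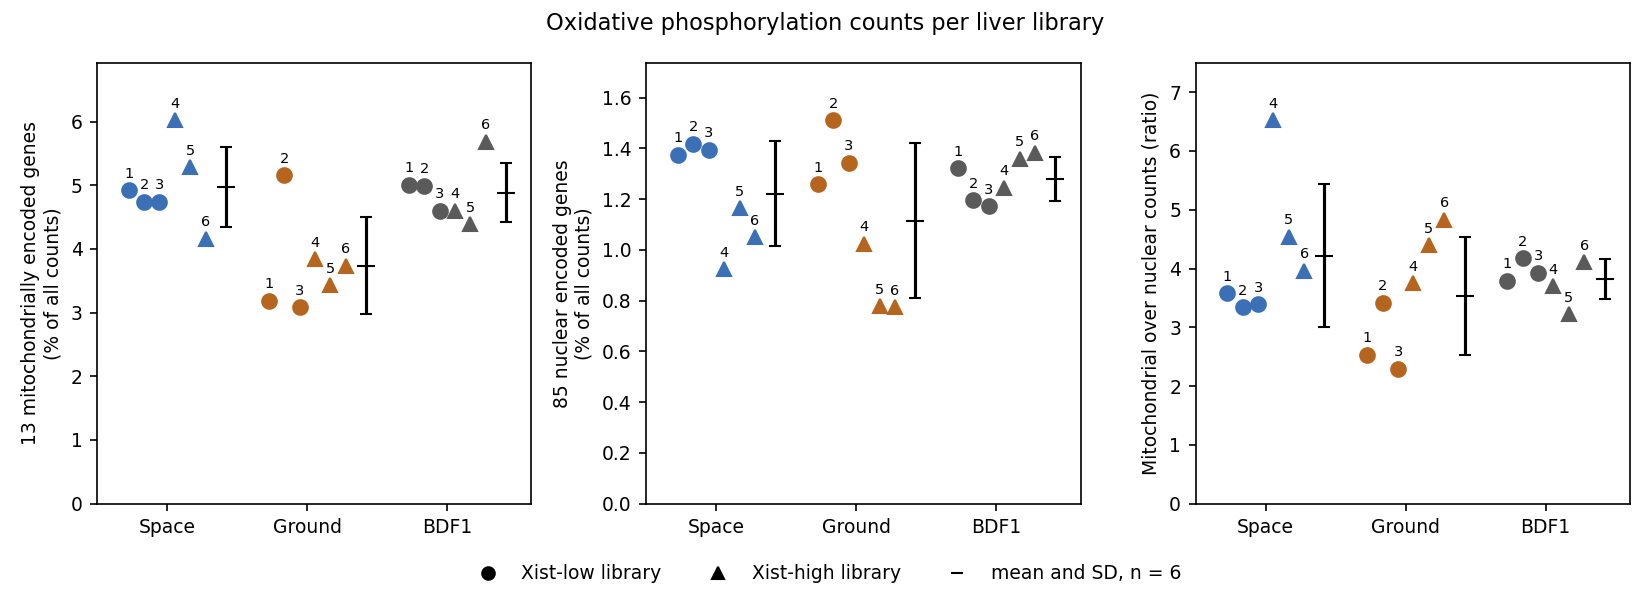
Share of all counts taken by the mitochondrial genes (left) and the nuclear genes (middle), in percent, and the ratio of the 2 sums (right), for each library by group. Numbers are replicates, circles Xist-low and triangles Xist-high libraries, and bars the mean and SD of 6; Ground replicates 1 and 3 have the lowest mitochondrial shares and ratios, and Space replicate 4 the highest ratio.

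Ground replicates 1 and 3 were set against Ground replicate 2, library by library and without a test. The mitochondrial share was 3.19% in replicate 1 (95% Wilson interval 3.177 to 3.193%), 3.09% in replicate 3 (3.077 to 3.094%) and 5.16% in replicate 2 (5.147 to 5.168%). These intervals cover counting error only. The nuclear share was 1.26%, 1.34% and 1.51% in the same order, so both kinds of gene were lower in replicates 1 and 3, the mitochondrial ones more so. Relative to replicate 2, the mitochondrial share stood at 0.618 and 0.598 and the nuclear share at 0.834 and 0.890. The ratio of mitochondrial to nuclear counts was 2.53 and 2.30 in replicates 1 and 3 and 3.41 in replicate 2, against 3.34 to 3.58 in the 3 Xist-low Space pups and 3.79 to 4.17 in the 3 Xist-low BDF1 mice. Replicate 2 therefore lay in the Space range and replicates 1 and 3 lay below all other libraries.

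The abundant mitochondrial genes differed by alike amounts. In CPM, these 6 genes stood at 0.586 to 0.659 of the replicate 2 level in replicate 1 and at 0.548 to 0.644 in replicate 3. For mt-Co1 the levels were 11954, 19259 and 10661 CPM in replicates 1, 2 and 3. The minus-strand gene mt-Nd6 did not follow them in replicate 1, with 22.0, 24.8 and 8.63 CPM (449, 473 and 164 counts). Of the 79 tested nuclear members, 75 were lower in replicate 1 than in replicate 2 (median ratio 0.803) and 72 were lower in replicate 3 (median 0.797). The 80 cytosolic ribosomal protein genes had nearly the same medians, 0.818 and 0.828. The mitochondrial ribosomal protein genes had 0.887 and 0.863, the assembly factors 0.9497 and 0.934, and all 11112 genes with at least 10 counts in every library had medians of 1.01 and 1.01. Replicates 1 and 3 had alike levels, with a median ratio of 0.998 over the nuclear members and 1.06 over the abundant mitochondrial genes.

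Some summed markers moved with this split and others did not. The 6 macrophage markers summed to 190.1 and 177 CPM in Ground replicates 1 and 3 and to 78.2 CPM in replicate 2, over a range of 78.2 to 209 CPM in Ground, 75.2 to 194 in Space and 70.6 to 156 in BDF1. The 4 nuclear-retained RNAs Malat1, Neat1, Meg3 and Kcnq1ot1, taken as a sign of RNA quality, summed to 622, 783 and 508 CPM in replicates 1, 2 and 3. The 5 endothelial markers summed to 81.7, 60.02 and 98.7 CPM in the same order. The hepatocyte markers summed to 81351, 89252 and 73126 CPM and the adipocyte markers to 4.75, 6.14 and 4.11 CPM, both lower in replicates 1 and 3. The stellate sum (161, 148 and 149 CPM) was nearly alike in replicates 2 and 3, and the red cell (365, 289.6 and 259 CPM) and cholangiocyte sums (37.1, 29.2 and 21.2 CPM) were highest in replicate 1 and lowest in replicate 3. The part of these markers in the difference was not tested. In whole tissue, fewer cells of a type and less RNA per cell cannot be told apart.

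Between the groups, none of the 11 tested mitochondrial genes passed an adjusted p under 0.05 in any comparison (edgeR quasi-likelihood test, Benjamini-Hochberg adjustment over 12847 genes), where 3.8% of all genes were called in Space against BDF1, 3.81% in Ground against BDF1 and 0% in Space against Ground. An unadjusted p under 0.05 was reached by 4 of them in the Space comparison with BDF1, 2 in that of Ground with BDF1 and 4 between the kinds of pup. That p was reached by 20.8% of all genes in Space against BDF1, 20.7% in Ground against BDF1 and 9.23% in Space against Ground. DESeq2 called 1, 2 and 0 of them, where it called 1030, 1087 and 30 of all 12847 genes. With quality weights limma voom called 1, 2 and 0 of them, where it called 1304, 551 and 0 of all genes. The median log2 change of the 11 genes was 0.28 in Space and -0.18 in Ground against BDF1, and all genes tested had medians of 0.00 and 0.02. Both medians moved with the libraries and the method used. With limma voom they were 0.07 in Space and -0.33 in Ground. In Space the median was 0.07 without Space replicate 4, 0.19 without BDF1 replicate 4, -0.08 in Xist-low libraries and 0.48 in Xist-high libraries. In Ground it was -0.40 in Xist-low libraries, 0.20 in Xist-high libraries, and 0.0053 without Ground replicates 1 and 3. It was -0.10 without Ground replicate 3, -0.30 without Ground replicate 2 and -0.09 without BDF1 replicate 6. Total-count scaling moved the median of all genes to -0.25 in Space and -0.24 in Ground. Relative to all genes the mitochondrial median was 0.28 with TMM and 0.24 with total-count scaling in Space, and -0.21 and -0.22 in Ground. A change of scaling shifts all genes of a library alike. Values relative to all genes, here and below, are therefore nearly the same by construction and are not a second test. In Space against Ground the median was 0.42, with 11 of 11 genes higher on average in Space pups, 0.27 without Space replicate 4 and 0.23 without Ground replicates 1 and 3. Space pups and Ground pups share the BDF1 libraries as their reference, so the first 2 comparisons are not independent.

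How strand was handled in counting is not given, which bears on the minus-strand gene mt-Nd6, a membrane subunit of complex I. This gene had the largest difference, with 164 to 1985 counts in a library. It ranged from 25.0 to 96.6 CPM (median 65.2) in Space pups, from 8.63 to 44.3 CPM (median 30.7) in Ground pups and from 46.9 to 98.2 CPM (median 59.5) in BDF1 mice. All 6 Ground libraries lay below the lowest BDF1 library, and 5 of 6 Space libraries lay above the highest Ground library. The difference between Ground pups and BDF1 mice missed the threshold (log2 change -1.21, SE 0.34, edgeR adjusted p = 0.0534). It passed in edgeR with Xist class in the model (log2 change -1.32, edgeR adjusted p = 0.00564) and with total-count scaling (log2 change -1.56, edgeR adjusted p = 0.00673). With the replicate number as a block it passed too (log2 change -1.27, edgeR adjusted p = 0.0225), although the labels give no pairing of animals by number. In all, the Ground difference of mt-Nd6 was called under 8 of 14 other settings, DESeq2 and limma voom among them, and without Space replicate 1 or 4 but no other library. The difference between Space pups and BDF1 mice did not pass (log2 change -0.06, SE 0.33, edgeR adjusted p = 0.945).

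For mt-Cytb the levels ranged from 4204 to 13028 CPM (median 5671) in Space pups, from 3424 to 6922 CPM (median 4854) in Ground pups and from 7277 to 10291 CPM (median 7821) in BDF1 mice. All 6 Ground libraries and 5 of 6 Space libraries were below the lowest BDF1 library, and Space replicate 4 was above the highest. Neither comparison passed (log2 change -0.72, SE 0.26, edgeR adjusted p = 0.116 in Ground, log2 change -0.31, SE 0.26, edgeR adjusted p = 0.536 in Space). Under total-count scaling mt-Cytb was called lower in Ground by edgeR (log2 change -1.03, edgeR adjusted p = 0.00797), along with mt-Nd4 (log2 change -0.52, edgeR adjusted p = 0.0477) and mt-Nd6. With that scaling 878 of all 12847 genes were called lower in Ground, against 263 with TMM, and relative to the median of all genes the mt-Cytb change was -0.79, against -0.75 with TMM. In Ground mt-Cytb was called under 5 of 14 other settings and on 1 of 18 omissions of a library: also by DESeq2 (adjusted p = 0.0461) and limma voom (adjusted p = 0.0226), and by edgeR in Xist-low libraries alone (adjusted p = 0.0475), without Space replicate 4 (adjusted p = 0.0397) and with total-count scaling and Xist class, chosen after seeing the data (adjusted p = 0.00254). In Space only this last edgeR setting called it lower (adjusted p = 0.0293).

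The complex I gene mt-Nd5 (chrM:11742-13565) had a positive change with TMM scaling where that of mt-Cytb was negative, although it lies next to mt-Nd6 and mt-Cytb on the genome. It ranged from 3297 to 6147 CPM (median 5070) in Space pups, from 2888 to 5221 CPM (median 3612) in Ground pups and from 2382 to 4069.6 CPM (median 3294) in BDF1 mice. In Space pups 4 libraries were above the highest BDF1 library, and the difference missed the threshold (log2 change 0.57, SE 0.19, edgeR adjusted p = 0.0961). It was called under 2 of 14 other settings, DESeq2 (adjusted p = 0.0303) and limma voom (adjusted p = 0.0176). In Ground pups 3 libraries were above it (log2 change 0.22, SE 0.19, edgeR adjusted p = 0.545), and with total-count scaling the mt-Nd5 change was 0.32 in Space and -0.05 in Ground, which relative to the median of all genes was 0.57 and 0.19 (with TMM 0.57 and 0.20). For mt-Co1 the levels ranged from 18709 to 36543 CPM (median 21980) in Space pups, from 10661 to 24653 CPM (median 19442) in Ground pups and from 14226 to 21671 CPM (median 16718) in BDF1 mice (log2 change 0.55, SE 0.22, edgeR adjusted p = 0.165 in Space). The other abundant genes mt-Nd1, mt-Nd2 and mt-Nd4 had log2 changes of 0.40, 0.14 and 0.13 in Space and 0.12, -0.09 and -0.23 in Ground against BDF1, and none passed in edgeR with TMM scaling. With total-count scaling mt-Nd4 was called lower in Ground, as given above, and total-count scaling with Xist class, chosen after seeing the data, called mt-Nd4 (edgeR adjusted p = 0.0179) and mt-Nd2 (edgeR adjusted p = 0.0496) lower there.

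Ratios between mitochondrial transcripts, which do not depend on library scaling, were higher relative to mt-Cytb in most pups than in controls. This was noticed after the values were seen and is given as a description with no test. The ratio of mt-Nd5 to mt-Cytb counts ranged from 0.472 to 0.957 in Space pups (median 0.808), from 0.6252 to 0.896 in Ground pups (median 0.843) and from 0.300 to 0.521 in BDF1 mice (median 0.398). Ground pups and BDF1 mice did not overlap, and of the Space pups only replicate 4 fell inside the BDF1 range. The ratio of mt-Nd1 to mt-Cytb ranged from 0.704 to 1.48 in Space, from 0.949 to 1.76 in Ground and from 0.560 to 0.722 in BDF1, with the same single overlap. As a share of all mitochondrial counts, mt-Cytb took 9.10% to 16.3% in Space, 8.66% to 14.0% in Ground and 16.9% to 21.3% in BDF1, so no pup reached the lowest control.

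**Figure D3:**
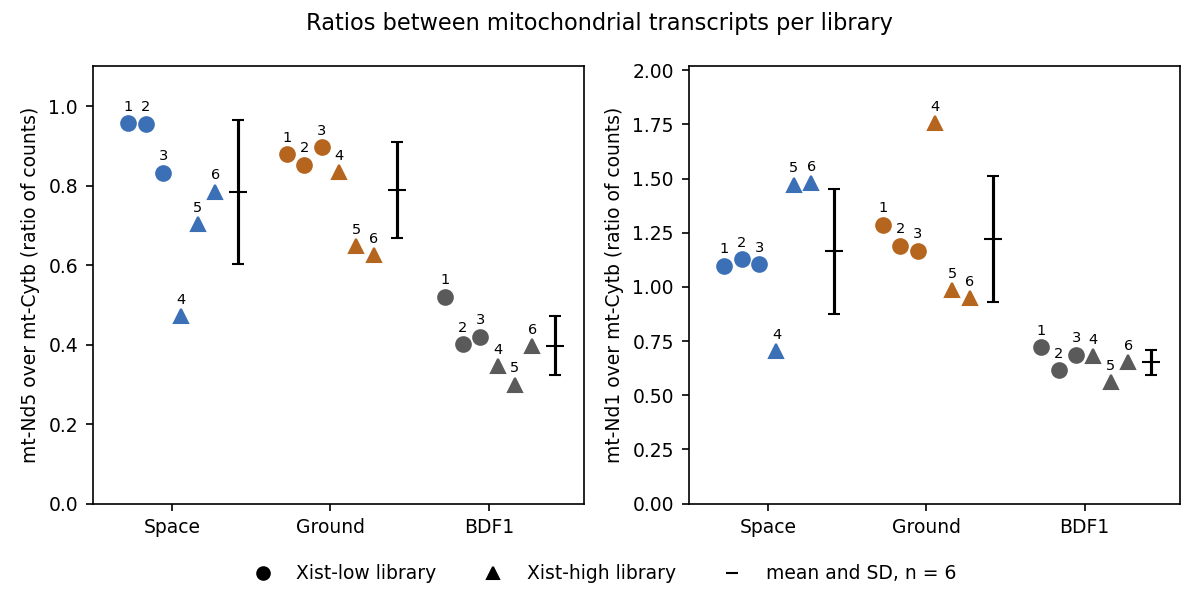
Ratio of mt-Nd5 to mt-Cytb counts (left) and of mt-Nd1 to mt-Cytb counts (right) for each library by group. Numbers are replicates, circles Xist-low and triangles Xist-high libraries, and bars the mean and SD of 6; the BDF1 libraries sit lowest, between 0.300 and 0.521 for mt-Nd5, and Space replicate 4 is the pup that falls among them.

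Among the nuclear members, the most abundant in each complex were housekeeping subunits. Complex V led with Atp5b (989 CPM as the mean of 18 libraries, 516 CPM per kb), Atp5a1, the alpha subunit (827 CPM, 335 per kb), and Atp5g3, a gene for the membrane ring subunit c (323 CPM, 453 per kb). Complex IV was led by Cox4i1 (325 CPM, 437 per kb), Cox6a1 (233 CPM, 409 per kb) and Cox7b (179 CPM, 179 per kb). Complex II was led by its flavoprotein subunit Sdha (442 CPM, 152 per kb), its iron-sulfur subunit Sdhb (215 CPM, 188 per kb) and the membrane anchor Sdhd (169.6 CPM, 138 per kb). Complex III was led by Uqcrq (264 CPM, 174 per kb) and the core proteins Uqcrc1 (237 CPM, 144 per kb) and Uqcrc2 (224 CPM, 118 per kb). Complex I was led by Ndufa4, now regarded as part of complex IV (238 CPM, 389 per kb), and the accessory subunit Ndufa10 was also abundant (169 CPM, 83.8 per kb).

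Where a subunit has tissue-specific forms, the general or liver form was the more abundant. Per kb of transcript, Cox6a1 stood at 409 CPM and its heart and muscle form Cox6a2 at 0.137, Cox7a2 at 161 and its heart and muscle form Cox7a1 at 2.31, and Cox8a at 296 against 0.358 for Cox8b and 0.122 for Cox8c. Cox4i1 stood at 437 CPM per kb and Cox4i2, the lung form, at 0.165. Cox6b1 stood at 289 and the testis form Cox6b2 at 0.513. Ndufa4 stood at 389 and Ndufa4l2, known as a hypoxia-induced gene, at 1.47. All 3 genes for subunit c were expressed, Atp5g3 at 453, Atp5g2 at 116 and Atp5g1 at 32.8 CPM per kb. The order of the last pair rests on the principal transcripts used, of 441 bases for Atp5g2 and 4715 for Atp5g1. Before division by length Atp5g1 was the higher in every library, at 127 to 198 CPM against 43.1 to 59.0 CPM. Cox7a2l, a factor that joins complexes III and IV, stood at 46.1. Of these low paralogs Cox8c had 14 counts in Space replicate 6, the library with germ cell markers, and at most 2 in any other. The testis form Cox6b2 had 15 counts there, but also 10 in Space replicate 4 and 1 to 9 in every other library.

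With TMM scaling, edgeR called 13 nuclear members in Space against BDF1, with log2 changes of 0.41 to 0.62. Of the 79 nuclear members tested, these 13 were called (edgeR, adjusted p under 0.05), all of them higher in Space pups, and 71 of 79 had a positive log2 change, with a median of 0.26 against 0.00 over all genes tested. Over all 12847 genes, 3.8% were called in either direction and 2.34% were called higher in Space pups. The called genes belonged to complex I (5 of 38 tested), complex III (3 of 8), complex IV (2 of 12) and complex V (3 of 17), and 0 of the 4 complex II genes were called, of which 2 had a positive change and none had an unadjusted p under 0.05. At an unadjusted p under 0.05, 48 nuclear members were higher and 0 lower, where 20.8% of all genes reached that p and 10.8% were higher. Leaving out 1 library at a time gave between 2 calls, without Space replicate 4 or BDF1 replicate 4 or 5, and 23, without Ground replicate 2. With Xist class in the model 23 nuclear members were called, where 1330 of all 12847 genes were called, against 488 in the main fit. All of this depends on the scaling: with total-count scaling 0 members were called, 43 of 79 nuclear members had a positive change and their median was 0.01, where the median over all genes was -0.25. Relative to the median of all genes the nuclear members stood 0.26 higher under both scalings. This follows from the shift of all genes together and is not a second test.

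Uqcr11, a small subunit of complex III (ENSMUSG00000020163, chr10:80402997-80406830), had the smallest adjusted p. It ranged from 174 to 243 CPM (median 189) in Space pups, from 151 to 209 CPM (median 164) in Ground pups and from 117 to 156 CPM (median 125) in BDF1 mice. All 6 Space libraries and 4 of 6 Ground libraries were above the highest BDF1 library. It was the one member called against BDF1 in both kinds of pup (log2 change 0.62, SE 0.11, edgeR adjusted p = 0.00456 in Space, log2 change 0.40, SE 0.11, edgeR adjusted p = 0.0447 in Ground).

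Of the other complex III genes, Uqcrb, the ubiquinone-binding subunit, ranged from 138 to 182 CPM (median 158) in Space pups, from 113 to 168 CPM (median 128) in Ground pups and from 98.5 to 145 CPM (median 115) in BDF1 mice (log2 change 0.45, SE 0.11, edgeR adjusted p = 0.0266). Uqcrq ranged from 247 to 380.2 CPM (median 294) in Space pups, from 204 to 340.5 CPM (median 271) in Ground pups and from 200.3 to 256 CPM (median 207) in BDF1 mice (log2 change 0.49, SE 0.12, edgeR adjusted p = 0.0349). In each, 5 of 6 Space libraries were above the highest BDF1 library. The large core subunits of the same complex were not called, with log2 changes of 0.02 for Uqcrc1 and 0.17 for Uqcrc2.

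In complex I, Ndufa1, an accessory subunit needed for assembly, ranged from 61.5 to 79.2 CPM (median 67.5) in Space pups, from 52.0 to 72.6 CPM (median 60.3) in Ground pups and from 48.7 to 58.6 CPM (median 52.6) in BDF1 mice (log2 change 0.41, SE 0.09, edgeR adjusted p = 0.0210). Ndufa13, also known as GRIM-19, ranged from 142 to 202 CPM (median 158) in Space pups, from 120.5 to 189.5 CPM (median 156) in Ground pups and from 104 to 142 CPM (median 117) in BDF1 mice (log2 change 0.49, SE 0.11, edgeR adjusted p = 0.0234). All 6 Space libraries were above the highest BDF1 library in Ndufa1 and in Ndufa13. The accessory subunits Ndufb2 (log2 change 0.41, SE 0.10, edgeR adjusted p = 0.0384), Ndufa6 (log2 change 0.43, SE 0.11, edgeR adjusted p = 0.0440) and Ndufv3 (log2 change 0.45, SE 0.12, edgeR adjusted p = 0.0444) were called too, each with 5 of 6 Space libraries above the highest BDF1 library.

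In complex IV, Cox6c ranged from 189 to 224 CPM (median 204) in Space pups, from 144 to 234 CPM (median 165) in Ground pups and from 133 to 181 CPM (median 139.5) in BDF1 mice, with all 6 Space libraries above BDF1 (log2 change 0.49, SE 0.11, edgeR adjusted p = 0.0216). Cox7b ranged from 172 to 224 CPM (median 216) in Space pups, from 152 to 253 CPM (median 165) in Ground pups and from 124 to 197 CPM (median 141) in BDF1 mice, with 5 of 6 above (log2 change 0.49, SE 0.13, edgeR adjusted p = 0.0444). Cox6a1 had all 6 Space libraries above BDF1 and missed the threshold (log2 change 0.31, SE 0.09, edgeR adjusted p = 0.0728).

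In complex V, Atp5md, a small membrane subunit linked to the dimer, ranged from 85.3 to 114 CPM (median 104) in Space pups, from 63.8 to 109 CPM (median 77.2) in Ground pups and from 62.9 to 87.4 CPM (median 70.5) in BDF1 mice, with 5 of 6 Space libraries above BDF1 (log2 change 0.50, SE 0.11, edgeR adjusted p = 0.0210). Atp5e, the epsilon subunit of the catalytic head, was called with 5 of 6 above (log2 change 0.43, SE 0.11, edgeR adjusted p = 0.0403), and Atp5j, coupling factor of the peripheral stalk, with 4 of 6 above (log2 change 0.42, SE 0.11, edgeR adjusted p = 0.0409). The catalytic subunits Atp5b and Atp5a1 had changes of -0.13 and -0.10 and were not called.

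**Figure D4:**
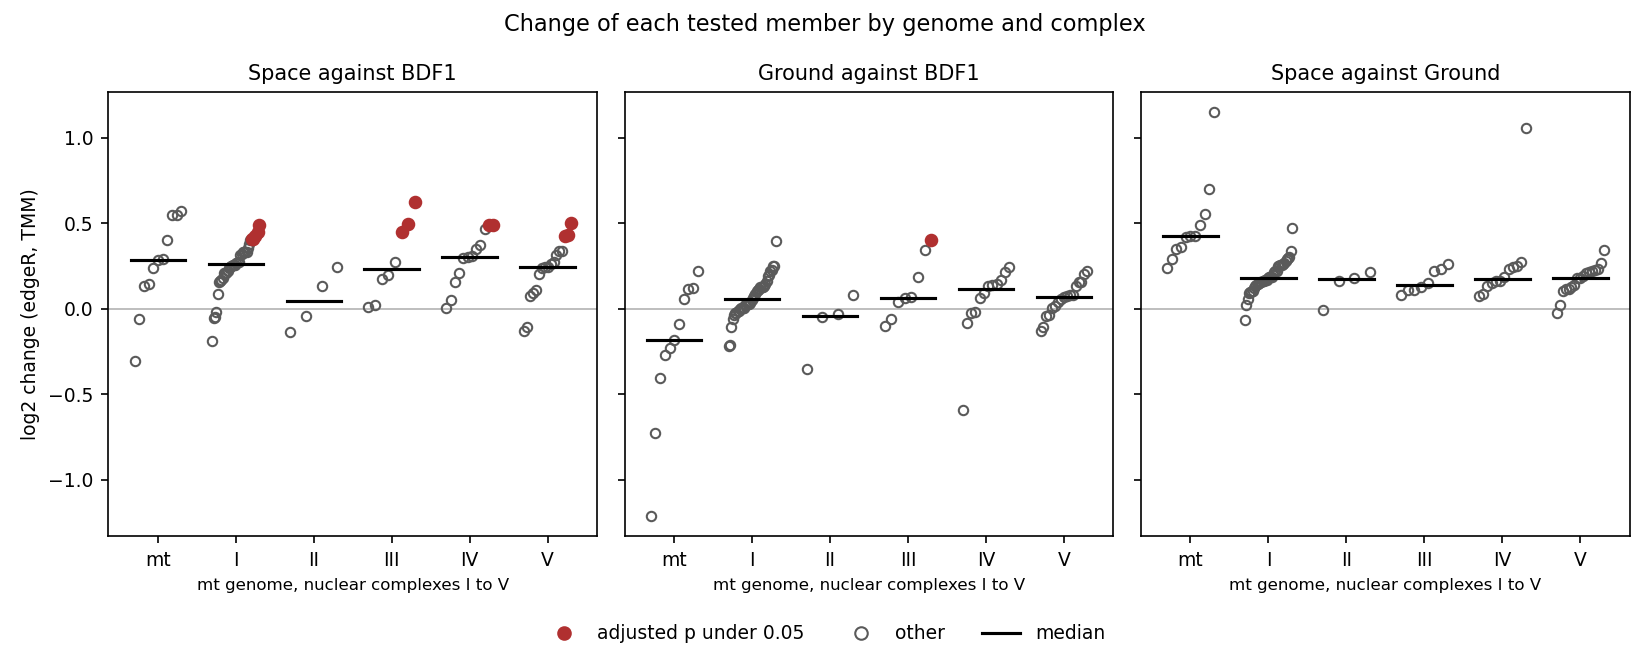
Log2 change of each tested member (edgeR, TMM scaling) in the 3 comparisons, with the mitochondrial genes first and the nuclear members by complex I to V. Filled red points passed an adjusted p under 0.05 (13 in Space against BDF1, 1 in Ground against BDF1, 0 in Space against Ground), open points did not, and lines are medians.

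Transcript length was compared beside the calls. The principal transcript of the 13 had a median of 535 bases (range 362 to 1582), and that of the other 66 tested nuclear members 863 bases (range 366 to 4715). Split by length after the values were seen, 24 of 24 members under 600 bases had a positive change in Space against BDF1 (median 0.33, 8 called), 25 of 26 from 600 to under 1000 bases (median 0.26, 1 called), and 22 of 29 of 1000 bases or more (median 0.17, 4 called, namely Ndufv3, Uqcrq, Ndufa13 and Cox7b). In Ground against BDF1 the medians of the same 3 classes were 0.13, 0.07 and -0.0033. The part of transcript length in the calls was not tested. Several called genes also share sequence with pseudogenes that are not in the count table: Uqcr11 with Gm16418 over 171 bases at 98.83% identity, Uqcrb with Gm2962 over 336 bases at 98.21%, and Cox6c with Cox6c2 over 231 bases at 96.97%. Ndufa13 shares 375 bases with the overlapping gene Tssk6, and Atp5j shares 124 with Gabpa. Values of these genes are uncertain to that extent.

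The promoters of the nuclear members were read from RefSeq windows of build GRCm38.p6, 250 bases before to 50 after the start, which matched 68 of the 85 nuclear members. The letters searched on both strands were GCGCANGCG for nuclear respiratory factor 1 (NRF1), CCGGAAG for the ETS family that includes GABP, and AAGATGGCG for YY1. They were present in 19, 16 and 6 of the 68 windows (27.9%, 23.5% and 8.8%), against 6.47%, 9.12% and 1.49% of all 27025 windows. Of the 10 called genes with a window, Uqcr11 held NRF1 and ETS letters, Ndufa6 NRF1, and Atp5md and Atp5e ETS; the other 6 held none of these letters. Motif letters are in capitals below, each window reading 5′ to 3′ along the gene, for Uqcr11 (chr10:80406772-80407071, minus strand), Ndufa6 (chr15:82354242-82354541, minus strand) and Atp5md (chr19:47090598-47090897, minus strand).
Uqcr11: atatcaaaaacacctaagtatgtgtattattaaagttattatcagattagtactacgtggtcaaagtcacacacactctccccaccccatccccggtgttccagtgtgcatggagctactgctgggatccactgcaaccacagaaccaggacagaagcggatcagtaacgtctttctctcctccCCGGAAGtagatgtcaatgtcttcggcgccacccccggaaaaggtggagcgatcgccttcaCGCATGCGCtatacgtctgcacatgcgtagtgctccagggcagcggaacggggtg
Ndufa6: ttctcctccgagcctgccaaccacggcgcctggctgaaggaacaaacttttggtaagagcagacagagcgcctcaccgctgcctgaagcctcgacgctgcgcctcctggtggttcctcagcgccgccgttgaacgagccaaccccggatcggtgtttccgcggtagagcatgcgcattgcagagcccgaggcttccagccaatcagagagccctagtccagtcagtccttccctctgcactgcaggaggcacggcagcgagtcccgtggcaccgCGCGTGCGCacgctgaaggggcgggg
Atp5md: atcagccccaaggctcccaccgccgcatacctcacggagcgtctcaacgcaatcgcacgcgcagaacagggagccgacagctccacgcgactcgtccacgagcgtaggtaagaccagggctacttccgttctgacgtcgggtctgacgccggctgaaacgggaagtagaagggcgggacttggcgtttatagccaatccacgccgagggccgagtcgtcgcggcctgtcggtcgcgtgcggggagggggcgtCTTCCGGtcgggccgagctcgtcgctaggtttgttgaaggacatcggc
A match of letters is a description of the window only.

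In Ground against BDF1, 1 of the 79 nuclear members was called, Uqcr11. Of these members 56 of 79 had a positive change, with a median of 0.06 against 0.02 over all genes. With total-count scaling 4 of 79 were positive (median -0.18, against -0.24 over all genes). Relative to all genes the median of the nuclear members was 0.04 with TMM and 0.06 with total-count scaling. Without Ground replicate 2, with TMM, the positive changes were 33 of 79 (median -0.02). Over all genes 3.81% were called in either direction and 1.76% higher, beside 1 of 79 here. Ndufa13 came next (log2 change 0.40, SE 0.11, edgeR adjusted p = 0.0576), with 5 of 6 Ground libraries above the highest BDF1 library. Sdhd, a membrane anchor of complex II, had the next adjusted p (log2 change -0.35, SE 0.11, edgeR adjusted p = 0.0790). It ranged from 121 to 194 CPM (median 178) in Space pups, from 122 to 170.0 CPM (median 152) in Ground pups and from 177 to 205 CPM (median 189) in BDF1 mice. All 6 Ground libraries of Sdhd were below the lowest BDF1 library. With the replicate block 2 members were called, Uqcr11 and mt-Nd6. The call of Uqcr11 in Ground pups was lost on leaving out Space replicate 1, 2, 3, 6 or Ground replicate 1, 2, 3, 5, 6 or BDF1 replicate 1, 2, 3, 4, 5 in turn, with an edgeR adjusted p of 0.0306 to 0.0975 over all 18 such fits.

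When Space and Ground pups were compared directly, no member passed an adjusted p under 0.05 (edgeR, 0 of 90, and 0% of all genes tested). DESeq2 and limma voom called 0 members as well, where they called 30 and 0 of all 12847 genes. At an unadjusted p under 0.05 there were 26 members, 22 nuclear and 4 mitochondrial, all higher in Space pups, where 5.08% of all genes were higher at that p. Leaving out 1 library moved this count to between 7 (without Ground replicate 4) and 63 (without Ground replicate 2). In these fits 964 and 1827 of all genes reached that p, against 1186 in the main fit. The count of members was 9 without Ground replicate 5, 14 without Space replicate 2 or 5, 15 without Space replicate 4 or Ground replicate 1, 16 without Ground replicate 3 and 17 without Space replicate 3. In the same order 1216, 1029, 1004, 1316, 1075, 862 and 1054 of all genes reached that p. The count of members was 14 when only these groups were fitted (959 of all genes) and 7 without Ground replicates 1 and 3 (940 of all genes). The median log2 change was 0.18 over the nuclear members, with 76 of 79 positive, and -0.02 over all genes. With total-count scaling the nuclear median was 0.17, with 76 of 79 positive. With that scaling 9 members had an unadjusted p under 0.05, 1 nuclear and 8 mitochondrial, as did 522 of all 12847 genes. The largest differences were mt-Nd6 (log2 change 1.149, SE 0.34, edgeR adjusted p = 0.376) and the muscle form Cox7a1 (log2 change 1.06, SE 0.44, edgeR adjusted p = 0.467), which had at most 43 counts in a library. Atp5md had log2 change 0.34, SE 0.11, edgeR adjusted p = 0.393, with 102 ± 10.1 CPM in Space pups and 80.1 ± 15.36 CPM in Ground pups (SD, n = 6). Without Ground replicates 1 and 3, an alternative chosen after seeing the data, 0 members were called in this comparison, 9 in Space against BDF1 and 1 in Ground against BDF1, where 0, 447 and 383 of all 13089 genes were called.

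**Figure D5:**
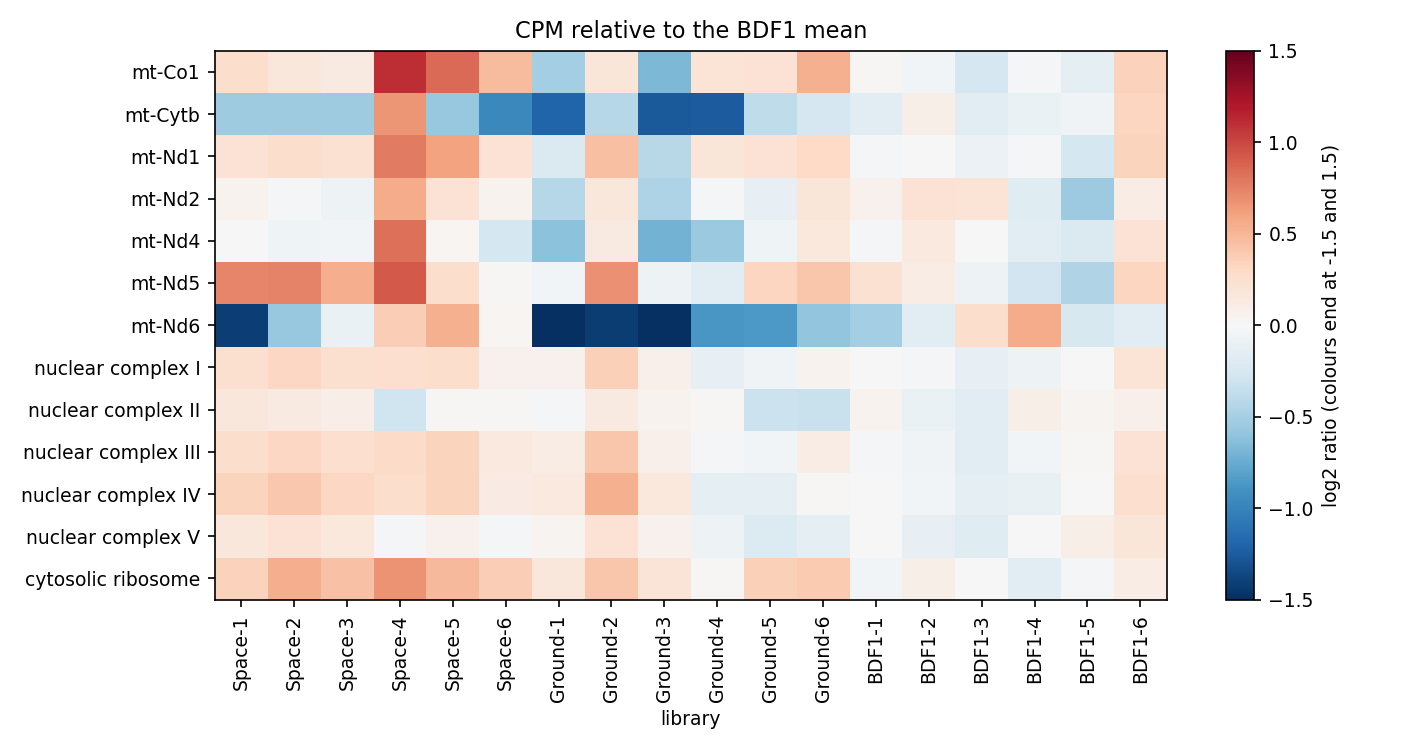
CPM of the 7 mitochondrial genes not covered by a nearly identical pseudogene over their whole length and above 10 counts in every library, and summed CPM of the nuclear members by complex and of the cytosolic ribosomal protein genes, per library as log2 ratio to the BDF1 mean. Red is higher and blue lower. The mt-Cytb and mt-Nd6 rows are below the BDF1 mean in all 6 Ground libraries. The mt-Co1, mt-Nd1, complex I, complex III and complex IV rows are above it in all 6 Space libraries. The ribosome row is above it in all 6 Space and all 6 Ground libraries, barely so in Ground replicate 4.

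The comparison was also made within each Xist class. In Xist-low libraries alone, 26 nuclear members were called higher in Space than in BDF1 (median 0.38, 78 of 79 positive), where 5.07% of all genes were called higher, and in Xist-high libraries alone 1 nuclear member and mt-Co2 were (median of the nuclear members 0.15, 59 of 79 positive), where 2.49% of all genes were called higher. In Ground the medians were 0.26 in Xist-low and -0.14 in Xist-high libraries. The difference between the classes was tested as an interaction over 13356 genes. It was called for 3 of 91 members in Space against BDF1, close to the 3.19% of all genes called there, and for 5 of 91 in Ground against BDF1, where 2.74% of all genes were called. In Space against Ground 0 members and 0 genes were called, with 3 members at an unadjusted p under 0.05. The interaction was negative for 68 of 79 nuclear members in Space (median -0.24) and 75 of 79 in Ground (median -0.36), and for 50.1% and 50.9% of all genes tested.

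Cox5a, a nuclear subunit of complex IV, had one of these differences. Its mean was 189 CPM in Xist-low and 137 in Xist-high Space pups, 178 and 129 in Ground pups, and 156 and 169.8 in BDF1 mice (n = 3 each). The interaction on the log2 scale (Xist-high minus Xist-low) was called by edgeR in Space (difference -0.59, SE 0.14, adjusted p = 0.0264) and in Ground (difference -0.59, SE 0.14, adjusted p = 0.0286). Ndufb9, a complex I subunit, behaved alike (difference -0.62, SE 0.14, adjusted p = 0.0244 in Space and difference -0.74, SE 0.14, adjusted p = 0.0122 in Ground, edgeR). In Ground the complex I gene Ndufb5 (difference -0.61, SE 0.15, adjusted p = 0.0408) and the complex V gene Atp5k (difference -0.68, SE 0.17, adjusted p = 0.0408) were called by edgeR as well, where the Space against Ground interaction called 0 members. The mitochondrial gene mt-Co2 went the other way in edgeR (difference 1.47, SE 0.30, adjusted p = 0.0139 in Space and difference 1.22, SE 0.31, adjusted p = 0.0425 in Ground). Its mean was 22.1 CPM in Xist-low and 34.3 in Xist-high Space pups and 24.8 and 13.8 in BDF1 mice, low values for a gene with an identical nuclear copy.

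The genes that build and serve the complexes were read against the same background, 2.34% of all genes higher and 1.46% lower in Space, and 1.76% higher and 2.05% lower in Ground against BDF1. Of 46 tested assembly factors 3 were called higher in Space than in BDF1 by edgeR: Cox19 (log2 change 0.50, adjusted p = 0.0442) and Coa6 (log2 change 0.54, adjusted p = 0.0156), both needed to deliver copper to complex IV, and the complex IV assembly factor Cox16 (log2 change 0.38, adjusted p = 0.0442). In Ground, Coa6 was called higher (log2 change 0.43, adjusted p = 0.0483, edgeR), and the complex I assembly factors Ndufaf7 (log2 change -0.30, adjusted p = 0.0471, edgeR) and Ndufaf3 (log2 change -0.48, adjusted p = 0.0344, edgeR) lower. Of 33 tested genes for mitochondrial DNA maintenance and RNA, Slirp, which stabilises mitochondrial mRNA, was called higher in Space (log2 change 0.43, adjusted p = 0.0417, edgeR), and Fastkd2, an RNA-binding protein of the organelle, lower in Space (log2 change -0.40, adjusted p = 0.0408, edgeR) and Ground (log2 change -0.42, adjusted p = 0.0363, edgeR). The median log2 change of this list was -0.01 in Space and -0.02 in Ground. With total-count scaling, 0 assembly factors were called in Space and 3 lower in Ground, and 2 and 3 genes of mitochondrial DNA maintenance and RNA lower in Space and Ground, with none higher. With that scaling 649 and 878 of all 12847 genes were called lower.

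Of 78 mitochondrial ribosomal protein genes, Mrpl30 and Mrpl1 were called higher in Space and Mrpl46 lower in Ground, and with total-count scaling 0 were called in Space and 4 lower in Ground. In the tricarboxylic acid cycle, 1 of 13 genes was called, Idh3a, the catalytic subunit of NAD-dependent isocitrate dehydrogenase, lower in Space (log2 change -0.57, adjusted p = 0.00556, edgeR) and Ground (log2 change -0.46, adjusted p = 0.0231, edgeR). None of the 9 tested transcriptional regulators (among them Ppargc1a, Ppargc1b and Nrf1), of the 13 membrane, import and carrier genes or of the 3 other chain components (Cyc1, Cycs and Ndufb1-ps) was called in any comparison by edgeR. Ndufb1-ps narrowly missed the threshold in Space against BDF1 (log2 change 0.48, SE 0.14, edgeR adjusted p = 0.0569). The cytosolic ribosome was the list with the most calls: 71 of 81 tested ribosomal protein genes were called higher in Space than in BDF1 (median 0.50, against 2.34% of all genes), 5 in Ground (median 0.27, against 1.76% of all genes) and 0 in Space against Ground (median 0.21, 81 of 81 positive). With total-count scaling 0 of the 81 were called in any of these comparisons, while 78 of 81 had a positive change in Space and the median relative to all genes was 0.49, against 0.50 with TMM.

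Markers of other cells were compared beside these results. The 5 red cell markers summed to 200.02 to 721 CPM in Space, 102 to 583 in Ground and 32.3 to 298 in BDF1. The 5 endothelial markers summed to 49.2 to 71.2 CPM, 60.02 to 105 and 46.7 to 98.5, the 6 stellate cell markers to 140.2 to 181, 148 to 207 and 108 to 190, and the 5 cholangiocyte markers to 22.1 to 28.8, 12.7 to 37.1 and 22.0 to 30.7 in the same order. Their part in the differences was not tested. Without Space replicate 6, 15 members were called in Space against BDF1 and 0 in Ground against BDF1, where 460 and 418 of all 12948 genes were called.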

How the data were processed

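Liver RNA was extracted with TRIzol and an RNeasy kit, and libraries were made with a stranded mRNA kit and sequenced as paired ends on an Illumina instrument. The submitters' processing notes name bcl2fastq 2.20, cutadapt 4.6, HISAT2 2.2.1, HTSeq 2.0.2 and build mm10. The authors deposited raw read counts per gene, not normalized; how multi-mapping reads and strand were handled is not given in the sources used here. Genes were placed with GENCODE M21, and transcripts compared with blastn 2.17.0.

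Counts were tested with edgeR 4.0.16 in R 4.3.3 (TMM, filterByExpr, quasi-likelihood test, 1 term per group over 18 libraries, Benjamini-Hochberg over 12847 genes). SE was derived from the F statistic. Alternatives used DESeq2 1.42.0, limma 3.58.1, other scalings, filters and left-out libraries. Groups came from the labels, which call the 6 samples of a group biological replicates. By the paper, fewer recipients of either kind became fertile than there are pups in a group. Some pups of a group therefore share a sire, which ones is not given, and the fits treat them as independent. The script was tested on simulated data. Same-numbered libraries of different groups had correlated deviations from the group means (18 pairs, 0.231 to 0.654, median 0.487). Other-numbered libraries of the same Xist class did as well (median 0.529), so these values show no pairing by number beyond Xist class. Named genes were all mitochondrial members, the 3 most abundant nuclear members of each complex, up to 10 called nuclear members per comparison by adjusted p, and tissue-specific paralogs. Any other gene was named with its values in view. One gene that this rule names is not reported here. The members and lists were chosen with earlier results of these data known.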

Additional observations from a re-analysis of the deposited data

Results flagged for a closer look

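Within each group, a library was looked at again where its gap to the nearest of the other 5 relative to the group's range exceeded Dixon's 95% critical value. Of 156 sets of 6 libraries examined, 32 met this, where chance at 1 in 20 would give about 7.8, and the sets are not independent of each other. All of them came from 4 libraries, and no cause was tested.

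Ground replicate 2 was highest for the mitochondrial share (5.16%, next 3.84%). It was also highest in summed CPM of nuclear complex I (4101) and complex III (1771). Among single genes it was highest for Ndufa10 (211 CPM), Sdhb (298 CPM), Cox7b (253 CPM), Cox6c (234 CPM), Cox6b1 (243 CPM), Ndufb2 (61.9 CPM), Atp5e (149 CPM), Atp5g1 (185 CPM) and Atp5g3 (409 CPM).

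BDF1 replicate 6 was the highest control in summed CPM of nuclear complex I (3691) and complex IV (1970.1). It was highest for mt-Atp6 (5.86 CPM), Uqcrq (256 CPM), Cox4i1 (347 CPM), Cox6b1 (199 CPM), Cox6c (181 CPM), Cox8a (188 CPM), Ndufb2 (50.1 CPM), Atp5j (214 CPM) and Atp5g1 (173 CPM).

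Space replicate 4 was highest in its group for the mitochondrial genes mt-Cytb (13028 CPM, next 5688), mt-Nd4 (6844 CPM, next 3939) and mt-Atp6 (7.53 CPM). It was lowest for summed complex II (813 CPM), Sdhd (121 CPM), Uqcrc1 (191 CPM) and Cox7a2l (35.4 CPM). Space replicate 6, the library with germ cell markers, was lowest for summed complex I (3342 CPM) and Cox7b (172 CPM).

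The difference from BDF1 itself differed between Xist-high and Xist-low libraries by a test of the interaction in edgeR. For Cox5a the log2 difference (Xist-high minus Xist-low) was -0.59 in Space and -0.59 in Ground, and for Ndufb9 -0.62 and -0.74. It was -0.61 for Ndufb5 and -0.68 for Atp5k in Ground. For mt-Co2 it was 1.47 in Space and 1.22 in Ground. Both kinds of pup share the BDF1 libraries.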

How the results depend on the processing

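In Space against BDF1, 13 members were called by edgeR. The count was 0 with total-count scaling (715 genes called in all), 25 with DESeq2 (1030 genes called in all, against 488 in edgeR), 54 with limma voom (1304 in all), 2 with no filter on low counts (281 in all), 23 with Xist class in the model (1330 in all), 26 in Xist-low and 2 in Xist-high libraries alone (1090 and 570 in all), and 21 when only the 2 groups compared were fitted (603 in all). Leaving out 1 library at a time gave 2 to 23: 2 without Space replicate 4 or BDF1 replicate 4 or 5 (282, 231 and 238 genes called in all), 5 without Space replicate 2 or 5 or BDF1 replicate 1 or 3, 6 without BDF1 replicate 2, 7 without Space replicate 1 or 3, and 23 without Ground replicate 2 (593 in all). In Ground against BDF1, 1 was called, and the count was 3 with total-count scaling (943 genes called in all, against 489 in edgeR with TMM), 5 with DESeq2 (1087 in all), 4 with limma voom (551 in all), 0 with no filter (218 in all), 4 with Xist class (1442 in all), 4 in Xist-low libraries alone (560 in all), 0 when only the 2 groups were fitted (275 in all), and 0 to 5 on leaving out 1 library (5 without Space replicate 4, with 667 in all). Total-count scaling with Xist class, chosen after seeing the data, gave 3 of 90 in Space (1 higher, 2 lower) and 10 of 90 in Ground, all lower, where 3563 and 3613 of all 12847 genes were called, 3318 and 3376 of them lower. Space against Ground gave 0 under each of these settings. The replicate block gave 15, 2 and 0 calls in the 3 comparisons, where 774, 843 and 0 of all genes were called.

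Uqcr11 kept its call in Space without any 1 library (log2 change 0.56 to 0.69) and under 13 of 14 other settings, and lost it with total-count scaling (adjusted p = 0.104, over settings 2.09e-06 to 0.104). The difference in mean log2 ratio of mitochondrial to nuclear counts was 0.11 for Space minus BDF1 (-0.03 to 0.17 on leaving out 1 library), -0.16 for Ground minus BDF1 (-0.26 to -0.04) and 0.26 for Space minus Ground (0.13 to 0.37), each within 1 SD of the main value. Without the most abundant member of each kind the Space minus BDF1 value was -0.09. Within Xist classes, the mean log2 ratio of both kinds of pup was below BDF1 in Xist-low and above it in Xist-high libraries. The causes of these shifts were not tested. Genes with few counts, such as mt-Nd3 and mt-Atp8, carry a large counting error, and why their counts were few was not tested.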
